A study of Homo sapiens with 60 samples.

Results

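Banhasasim-tang is a decoction of the East Asian tradition given for digestive complaints, made in its usual recipe from Pinellia tuber, Scutellaria root, Coptis rhizome, dried ginger, ginseng, licorice and jujube (the labels name the mixture, not its ingredients). HepG2 cells, an established human hepatocellular carcinoma line that keeps many hepatocyte functions, received its water extract for 24 h. The comparison described here sets 3 libraries at 500 µg/mL against 3 libraries at 20 µg/mL. These 6 libraries, of 60 in the series, were chosen by the dose and extract in their labels, with no measured value. Another 3 libraries at 100 µg/mL serve only as the middle of the dose course. The other groups used are Yijung-tang, a mixture of ginseng, dried ginger, licorice and Atractylodes in its usual recipe, with 3 libraries each at 500 and 20 µg/mL, and 3 libraries of cells with vehicle (0.1% DMSO per the sample labels). All these cells are unmodified HepG2 without any further agent named in the sample labels. The titles place all 60 libraries in 1 batch, BatchB. Their sample codes begin with the same number for Banhasasim-tang and Yijung-tang and differently for the vehicle, and the labels do not say what the code stands for, so anything it marks cannot be told apart from the extract in comparisons with vehicle.

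Several regulatory systems of the hepatocyte bear on the genes below. Metallothioneins are small cysteine-rich proteins that bind zinc and copper, and the zinc sensor MTF1 switches their genes on when free zinc is high. HIF factors, stabilised at low oxygen or when iron is chelated, switch on glycolysis. SREBP factors switch on cholesterol and fatty acid synthesis, while the aryl hydrocarbon receptor answers planar plant and combustion compounds through CYP1A1 and NRF2 answers electrophiles through detoxifying enzymes.

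Expected counts summed to 23904794 to 29993764 in the 9 Banhasasim-tang libraries and to 21014795 to 22891342 in the vehicle libraries. The hepatocyte markers fitted the labelled line: 14 of 14 were above 0, and summed to 45899 to 46846 CPM (a gene’s counts as a share of its library, on the scale edgeR’s cpm function gives) at 500 µg/mL, against 40096 to 47031 CPM at 20 µg/mL. At an adjusted p under 0.05, 2 of the 14 hepatocyte markers were higher and 5 lower at 500 than at 20 µg/mL (median log2 change -0.015). Of all genes tested 8.59% were higher and 6.52% lower. Markers of other cell types summed to 1794 to 2018 CPM at 500 µg/mL, against 1226 to 1393 CPM at 20 µg/mL. Lysozyme (LYZ) made most of both, with means of 1832 CPM at 500 µg/mL and 1214 CPM at 20 µg/mL. Of these 20 other markers 10 were tested, and 3, LYZ, PDGFRB and CD68, were higher and 2, ACTA2 and PECAM1, lower at 500 µg/mL (median log2 change -0.33). PTPRC, CD3E, HBB, KRT5 and DCN were at 0 at both doses, KRT14 and LUM each averaged 0 CPM at 500 µg/mL and 0.0121 CPM at 20 µg/mL, COL3A1 averaged 0.0125 CPM at 500 µg/mL and 0.0246 CPM at 20 µg/mL, and DES averaged 0.0125 CPM at 500 µg/mL and 0 CPM at 20 µg/mL. The part of these markers in the results was not tested. Vehicle replicate 2 stood apart from the other 2 vehicle libraries in blood cell genes, with 79.9 CPM of HBA1, 106 CPM of HBA2, 42.9 CPM of HBB and 6.93 CPM of PTPRC. The highest values of these genes in any other library were 2.6, 0.131, 0.0455 and 0.0455 CPM, so counts against vehicle are given with and without that library. On the first principal component of the 9 Banhasasim-tang and 3 vehicle libraries, which held 22.8% of the variance, the libraries at 500 µg/mL lay at 16.7 to 19.6, the other libraries of the extract at -2.02 to 12.5 and the vehicle libraries at -34.1 to -22.1. On the second, with 13.1%, the libraries at 500 µg/mL lay at 15 to 19.7 and the others of the extract below 0, while vehicle replicate 2 lay at 14.9 and the other vehicle libraries at 3.84 and 2.78.

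At 500 µg/mL, 2433 of 16093 genes tested differed from 20 µg/mL at an adjusted p under 0.05 (15.1%), by edgeR's quasi-likelihood test with Benjamini-Hochberg adjustment. Of these, 1383 were higher (8.59%) and 1050 lower (6.52%). The counts by gene list of 500 against 20 µg/mL below stand against these shares. Most changes were small: 36 genes (0.224%) rose and 39 (0.242%) fell by more than 1 on the log2 scale, which is 2-fold. Among the highest genes were the insulin-like growth factor binding protein IGFBP1 and the cytochrome CYP1A1, and the lowest were 5 metallothionein genes and hepcidin (HAMP). With the model fitted to these 6 libraries alone 1451 genes passed, and with the 9 libraries of the extract 1532 passed.

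Almost all calls along the dose course belonged to its upper step. Between 100 and 20 µg/mL, edgeR called 0 genes higher and 2 lower of 16093 (0.0124%), with 224 higher and 275 lower at an unadjusted p under 0.05 and 0 higher and 2 lower by DESeq2. The 2 genes were MT1F and ASNS, the asparagine synthetase. Of 7 tested metallothionein genes, MT1F among them, 7 were lower at an unadjusted p under 0.05 by edgeR. Their median log2 change between 100 and 20 µg/mL was -0.44, against 0.00077 over all genes. ASNS had 30.4, 30.1 and 32.3 CPM at 100 µg/mL, against 38.1, 43.5 and 43.4 CPM at 20 µg/mL, and 37, 39.3 and 38.2 CPM at 500 µg/mL. It was lowest at the middle dose. The count fell to 1 without replicate 2 or replicate 3 at 100 µg/mL or without replicate 2 at 20 µg/mL, and was 69 with no filter on low counts. Between 500 and 100 µg/mL, 1255 genes were higher (7.8%) and 949 lower (5.9%), together 2204 (13.7%). The 2 steps and the whole course share libraries, so their counts are not independent.

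**Figure D1:**
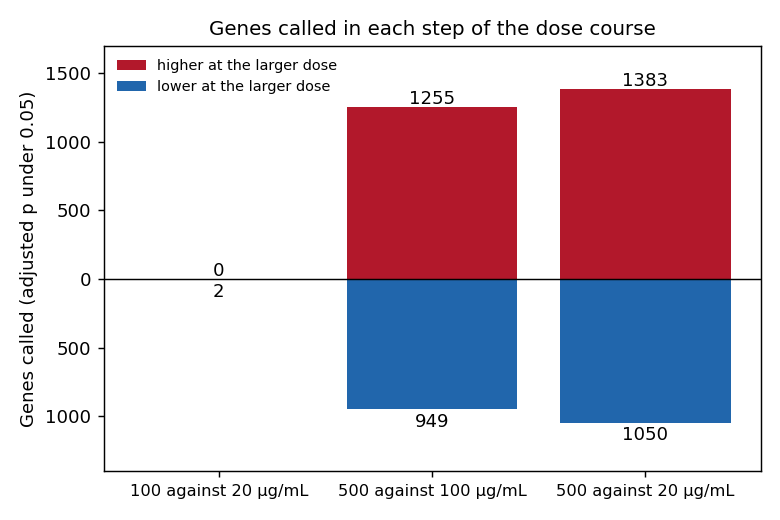
Genes called at an adjusted p under 0.05 (vertical axis, number of genes) in each step of the Banhasasim-tang dose course, higher and lower at the larger dose, with 3 libraries per dose. The step of 100 against 20 µg/mL has 0 higher and 2 lower genes, while 500 against 100 µg/mL has 1255 and 949 and 500 against 20 µg/mL has 1383 and 1050.

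Metallothionein genes fell at 500 µg/mL. Of 12 listed genes 7 were tested, and 7 of 7 were lower at 500 than at 20 µg/mL, against 6.52% of all genes, with a median log2 fold change of -2.04 against 0.0018 over all genes. By edgeR and by DESeq2 0 were higher, also at an unadjusted p under 0.05. The other 5 (MT1B, MT1H, MT1HL1, MT3 and MT4) were too low to test. The human genes lie in a cluster, and 11 of the listed ones fall within chr16:56565049-56684196 (GRCh38, GENCODE 29). For 2 of the tested members the promoter is shown because its metal response elements are where MTF1 is known to bind. The sequences are from RefSeq (GRCh38.p14), 250 bases before to 50 after the transcript start, on the plus strand at chr16:56682220-56682519 and chr16:56608334-56608633, with capitals marking each match to TGCACNC or TGCGCNC on either strand.
MT1X: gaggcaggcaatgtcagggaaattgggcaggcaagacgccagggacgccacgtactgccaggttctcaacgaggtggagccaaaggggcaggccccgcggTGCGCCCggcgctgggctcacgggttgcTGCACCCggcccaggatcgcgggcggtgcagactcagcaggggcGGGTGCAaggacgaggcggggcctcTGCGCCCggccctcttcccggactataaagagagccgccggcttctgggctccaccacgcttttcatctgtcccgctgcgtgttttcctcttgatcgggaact
MT2A: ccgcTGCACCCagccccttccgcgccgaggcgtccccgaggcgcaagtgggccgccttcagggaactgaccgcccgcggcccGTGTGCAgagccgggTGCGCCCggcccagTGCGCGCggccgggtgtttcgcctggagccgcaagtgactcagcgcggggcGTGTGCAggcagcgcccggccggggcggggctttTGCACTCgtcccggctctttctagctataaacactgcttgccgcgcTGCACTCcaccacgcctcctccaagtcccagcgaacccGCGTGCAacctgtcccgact
MT1X held 4 matches and MT2A 8, and none of the marked stretches overlap. Of 35116 promoters of this length, 29.6% held at least 1 match and 0.601% at least 4. All 5 listed genes with an entry in the promoter table (MT1B, MT1H, MT1X, MT2A and MT4) had at least 3, against 2.3% of all promoters. Here and below, a listed gene with several starts counts by the start with most matches. The shares of all promoters count every start, so the 2 measures are not alike. A match describes the letters and is not evidence of binding here.

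MT1F, at chr16:56657694-56660698, plus strand, had 9.74, 10.5 and 8.79 CPM at 500 µg/mL, against 64.6, 72.2 and 64.9 CPM at 20 µg/mL. Every library at 500 µg/mL lay far below every library at 20 µg/mL. Its log2 fold change was -2.80 ± 0.10 (SE, n = 3 each; adjusted p = 1.93e-26). At 100 µg/mL it had 49.3, 46.8 and 48.3 CPM, already below 20 µg/mL (-0.48 ± 0.085 on the log2 scale, adjusted p = 0.00631), while vehicle libraries had 67.2, 64.1 and 69.3 CPM. MT1G, MT1E and MT1X belong to the same family of near-identical copies, so the split of reads among them is uncertain. MT1G fell to 22.2, 18.4 and 20.3 CPM at 500 µg/mL, against 127, 136 and 125 CPM at 20 µg/mL, a log2 change of -2.67 ± 0.13 (adjusted p = 1.78e-21). MT1E fell by 2.04 and MT1X by 1.96 on the log2 scale. For MT2A, the most widely expressed human metallothionein, the values were 175, 165 and 162 CPM at 500 µg/mL and 468, 505 and 453 CPM at 20 µg/mL (-1.51 ± 0.12, adjusted p = 2.08e-13). MT1M, at a low level, had 0.0786, 0.113 and 0.135 CPM at 500 µg/mL and 1.9, 2.33 and 1.81 CPM at 20 µg/mL. MT1A had 1.14, 1.24 and 1.39 CPM at 500 µg/mL and 2.8, 3.27 and 3.26 CPM at 20 µg/mL. The dose groups of all 7 genes did not overlap, which held for 13.3% of all genes with lower and 15.4% with higher values at 500 µg/mL. In bulk samples, fewer cells that express a gene and less of its RNA per cell cannot be told apart, here and below.

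A few genes of zinc transport were called, in either direction. Of 19 tested, 5 were higher and 3 lower (median 0.055), where 8.59% of all genes were higher and 6.52% lower. SLC30A1, the plasma membrane zinc exporter and itself an MTF1 target, had 73.3, 76.9 and 72 CPM at 500 µg/mL, against 114, 115 and 125 CPM at 20 µg/mL. It fell without overlap, with a log2 change of -0.67 ± 0.046 (adjusted p = 3.58e-16). SLC39A10, a plasma membrane zinc importer, had 27, 25.8 and 28.5 CPM at 500 µg/mL, against 14, 12.4 and 15.2 CPM at 20 µg/mL, and rose by 0.96 ± 0.066 (adjusted p = 4.98e-16). The importer SLC39A4 rose by 0.62, and SLC30A10, a relative of SLC30A1, fell by 0.45. The rest of the called genes were MTF1, SLC39A6 and SLC39A14, higher by 0.21, 0.15 and 0.10, and SLC39A5, lower by 0.21. Leaving out replicate 2 at 20 µg/mL or replicate 1 at 500 µg/mL left 2 genes called higher, as did a fit of the 6 libraries alone. Over all genes these fits called 881 of 16317, 1008 of 16322 and 797 of 14931 higher, in the same order.

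IGFBP1, a secreted protein that binds insulin-like growth factors and that insulin represses in liver, had 223, 228 and 247 CPM at 500 µg/mL, against 47.8, 50.9 and 51.7 CPM at 20 µg/mL. All 3 libraries at 500 µg/mL lay far above every library at 20 µg/mL. The log2 fold change was 2.21 ± 0.096 (adjusted p = 1.73e-23), at chr7:45888357-45893668, plus strand. At 100 µg/mL it did not pass, with a log2 change from 20 µg/mL of 0.073 ± 0.099 (adjusted p = 1). Among 19 tested FOXO1 and insulin-repressed genes, 7 were higher and 3 lower (median 0.069), against 8.59% and 6.52% of all genes. DEPP1, a FOXO target that regulates autophagy, had 33.4 ± 1.23 CPM at 500 µg/mL and 18.9 ± 1.27 CPM at 20 µg/mL (SD, n = 3 each), a change of 0.83. The glucose-6-phosphatase gene G6PC1 rose by 0.64 and TRIB1, a pseudokinase that lowers lipid synthesis, by 0.31. The 3 lower genes were PCK2 (-0.27), KLF15 (-0.28) and SESN1 (-0.24), and KLF15 lost its call when any 1 of the 6 libraries was left out.

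Other genes at the top of the list had different roles. CHST15, a chondroitin sulfotransferase, averaged 22.4 ± 0.864 CPM at 500 µg/mL and 8.44 ± 0.978 CPM at 20 µg/mL. RNASET2, a lysosomal ribonuclease, averaged 72.4 ± 2.23 CPM at 500 µg/mL and 30.7 ± 0.787 CPM at 20 µg/mL, and the endoplasmic reticulum protein gene TMCC1 averaged 51.2 ± 3.18 CPM at 500 µg/mL and 20.2 ± 1.94 CPM at 20 µg/mL. On the log2 scale these 3 rose by 1.40, 1.24 and 1.34. GDF15, a stress-induced cytokine that lowers appetite, had 378, 351 and 368 CPM at 500 µg/mL, against 187, 197 and 174 CPM at 20 µg/mL. It rose by 0.98 ± 0.059 (adjusted p = 5.82e-18), and the groups did not overlap. AQP3, a water and glycerol channel, rose by 1.02, PLAC8 by 1.01 and RASD1, a small G protein induced by dexamethasone, by 0.95.

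**Figure D2:**
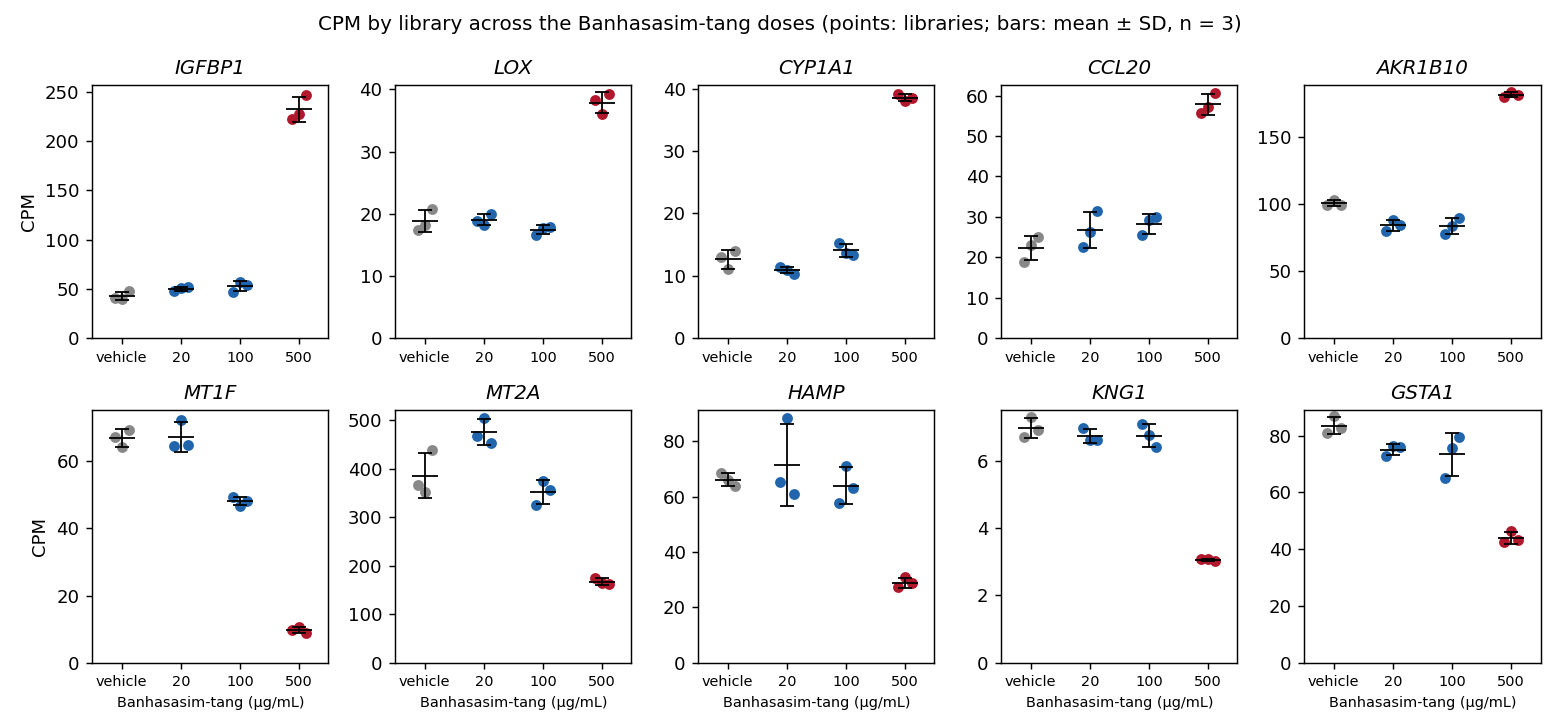
Level of 10 genes in CPM (vertical axis, starting at 0) in each library with vehicle and with 20, 100 and 500 µg/mL of Banhasasim-tang (horizontal axis), with mean ± SD over 3 libraries. IGFBP1, LOX, CYP1A1, CCL20 and AKR1B10 stand apart at 500 µg/mL above all lower doses, and MT1F, MT2A, HAMP, KNG1 and GSTA1 below them.

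CYP1A1, the cytochrome P450 that oxidises planar aromatic compounds, had 39.2, 38.1 and 38.4 CPM at 500 µg/mL, against 11.4, 10.9 and 10.3 CPM at 20 µg/mL. The 3 libraries at 500 µg/mL lay close together and well above the others. The log2 fold change was 1.82 ± 0.11 (adjusted p = 2.27e-17). Along the course its mean was 12.6 CPM with vehicle, 10.9 CPM at 20, 14.1 CPM at 100 and 38.6 CPM at 500 µg/mL. Its promoter is shown as the proximal end of a region the aryl hydrocarbon receptor is known to use; it is from RefSeq (GRCh38.p14), minus strand, chr15:74725479-74725778, with capitals on the 1 match to GCGTG, the core of the xenobiotic response element, searched on both strands.
CYP1A1: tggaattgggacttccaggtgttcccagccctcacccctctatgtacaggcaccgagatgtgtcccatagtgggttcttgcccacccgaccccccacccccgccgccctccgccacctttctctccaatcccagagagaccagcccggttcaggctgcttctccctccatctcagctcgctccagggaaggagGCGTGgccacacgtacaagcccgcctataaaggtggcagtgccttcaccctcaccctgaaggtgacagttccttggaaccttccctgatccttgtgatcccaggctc
Of 35116 promoters 36.5% held this short motif, and 7 of 9 genes of the receptor's battery with an entry did. Few other genes of the battery passed. Of 10 tested members 3 were higher and 1 was lower (median 0.094), where 8.59% of all genes were higher and 6.52% lower. NQO1, a quinone reductase that NRF2 also controls, rose by 0.36 ± 0.048, and AHR, the receptor itself, by 0.15 ± 0.055 (adjusted p = 0.0484), a call lost when any 1 of the 6 libraries was left out. The lower one, NFE2L2, which encodes NRF2, changed by -0.13 ± 0.041 and lost its call without replicate 2 or replicate 3 at 20 µg/mL, in the fits of the 6 libraries and of the extract's 9, and with no filter on low counts. AHRR, the receptor's repressor, had 0.432, 0.677 and 0.609 CPM at 500 µg/mL and 0.861, 0.601 and 0.398 CPM at 20 µg/mL (adjusted p = 0.864). TIPARP, another receptor target, had 19.6, 22.1 and 21.9 CPM at 500 µg/mL and 22.2, 19.6 and 21.3 CPM at 20 µg/mL (adjusted p = 0.944). CYP1A2 and ALDH3A1, both low in every library, did not pass.

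Glycolysis genes rose together. Of 25 tested, 19 were higher and 0 lower by edgeR (median 0.32), and 0 were lower at an unadjusted p under 0.05 or by DESeq2. SLC2A1, the glucose carrier GLUT1, had 898, 915 and 908 CPM at 500 µg/mL, against 648, 677 and 649 CPM at 20 µg/mL (0.46 ± 0.033, adjusted p = 1.24e-15). The neuronal-type carrier SLC2A3 had 316, 330.3 and 324 CPM at 500 µg/mL, against 222, 220.4 and 229 CPM at 20 µg/mL, a change of 0.53 ± 0.046. ALDOA, the aldolase that splits fructose bisphosphate, had 1717, 1698 and 1729 CPM at 500 µg/mL, against 1172, 1271 and 1152 CPM at 20 µg/mL. LDHA, which turns pyruvate into lactate, had 1380.0, 1427 and 1458 CPM at 500 µg/mL, against 950.1, 1023 and 1039 CPM at 20 µg/mL (0.50 ± 0.043, adjusted p = 6.96e-13). In each of these genes the dose groups did not overlap. The first enzyme hexokinase, as HK2, rose by 0.57, the phosphofructokinase PFKP by 0.53 and pyruvate kinase PKM by 0.43, so that called genes stood from uptake to lactate export through SLC16A3 (0.23).

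The wider hypoxia response moved the same way. Of 30 tested genes, some of which also serve in glycolysis, matrix or clotting, 20 were higher and 0 lower by edgeR (median 0.38), with 0 lower at an unadjusted p under 0.05 and by DESeq2. PDK1, the kinase that keeps pyruvate out of the mitochondrial cycle, had 44.9, 44.1 and 45.1 CPM at 500 µg/mL, against 25.1, 22 and 27.9 CPM at 20 µg/mL. It rose by 0.84 ± 0.066 (adjusted p = 3.31e-14), without overlap. PLOD2, a collagen lysyl hydroxylase, had 227, 232 and 243 CPM at 500 µg/mL, against 153, 152 and 163 CPM at 20 µg/mL, and rose by 0.58 ± 0.046. LOX, the collagen cross-linking oxidase, had 38.3, 36 and 39.3 CPM at 500 µg/mL, against 18.8, 18.2 and 20.0 CPM at 20 µg/mL (0.99 ± 0.077, adjusted p = 2.54e-14). The carbonic anhydrase genes CA9 and CA12 rose by 1.72 and 1.33. CA9 was at a low level, with 2.2, 1.92 and 1.49 CPM at 500 µg/mL and 0.502, 0.601 and 0.579 CPM at 20 µg/mL. The feedback hydroxylases EGLN1 and EGLN3 and the mitophagy receptors BNIP3 and BNIP3L were also higher, by 0.33, 0.64, 0.40 and 0.41. The promoter of LDHA is shown because HIF is known to bind there, from RefSeq (GRCh38.p14), plus strand, chr11:18394313-18394612, with capitals on matches to ACGTG on either strand.
LDHA: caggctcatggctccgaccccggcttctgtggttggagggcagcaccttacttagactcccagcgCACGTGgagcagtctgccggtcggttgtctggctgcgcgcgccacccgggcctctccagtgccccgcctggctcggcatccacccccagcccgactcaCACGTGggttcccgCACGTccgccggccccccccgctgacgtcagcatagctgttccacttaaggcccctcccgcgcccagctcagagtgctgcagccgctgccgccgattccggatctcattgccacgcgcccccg
It held 5 matches, counting the palindrome CACGTG on both strands, where the 2 matches overlap. Of all promoters 21.4% held at least 1 and 0.843% at least 4, and of the 24 listed hypoxia genes with an entry, 13 held at least 1.

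**Figure D3:**
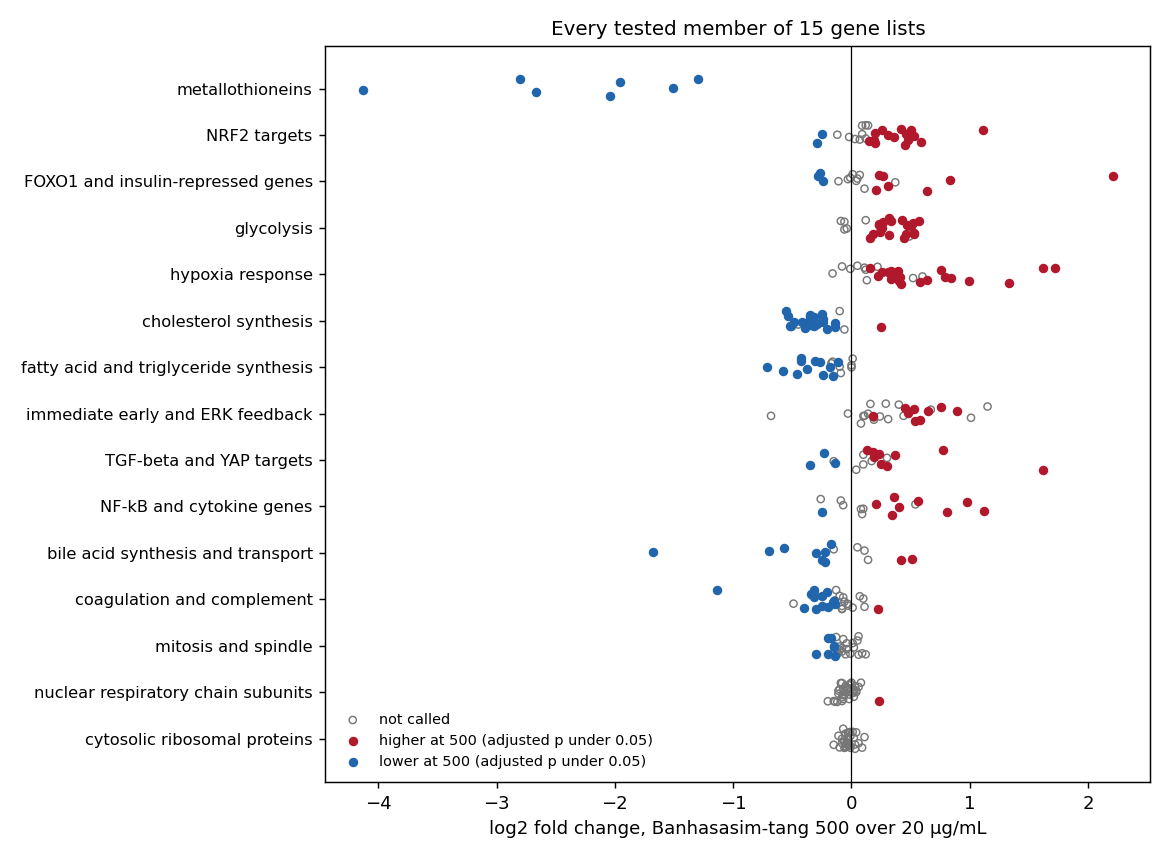
Log2 fold change of 500 over 20 µg/mL of Banhasasim-tang (horizontal axis) for each tested member of 15 gene lists (rows), with red points for genes called higher, blue for genes called lower and open points for genes not called. The 7 metallothioneins and the 22 cholesterol genes called lower lie left of 0, while the called hypoxia and glycolysis genes lie right of it.

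Genes of cholesterol synthesis were lower along the pathway. Of 26 tested genes 22 were lower and 1 was higher (median -0.33). HMGCS1, which makes HMG-CoA, had 306, 293 and 301 CPM at 500 µg/mL, against 447, 427 and 441 CPM at 20 µg/mL (-0.55 ± 0.056, adjusted p = 1.43e-10). Its groups did not overlap. MVK, the mevalonate kinase, fell to 60.1, 59 and 56.6 CPM at 500 µg/mL, against 81.7, 87 and 81.2 CPM at 20 µg/mL. Lanosterol synthase LSS fell by 0.42 and the sterol reductase TM7SF2 by 0.49. Against vehicle the log2 changes at 500 µg/mL were -0.70 for HMGCS1, -0.24 for MVK, -0.22 for LSS and -0.15 for TM7SF2. TM7SF2 had 63.9, 60.0 and 63.2 CPM at 500 µg/mL and 89, 90.2 and 83.2 CPM at 20 µg/mL, and vehicle libraries had 67.5, 71.5 and 69.1 CPM, so its lower level at 500 µg/mL was nearer to vehicle.

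Genes of fatty acid and triglyceride synthesis were lower too, with 12 of 19 tested genes lower and 0 higher by edgeR (median -0.18). At an unadjusted p under 0.05 and by DESeq2 0 were higher as well. ACSS2, which makes cytosolic acetyl-CoA from acetate, had 79, 77.1 and 76 CPM at 500 µg/mL, against 126, 128 and 126 CPM at 20 µg/mL (-0.71 ± 0.041, adjusted p = 1.39e-18). GPAM, the first acyltransferase of glycerolipid synthesis, had 146, 138 and 139.7 CPM at 500 µg/mL, against 223, 199 and 212 CPM at 20 µg/mL (-0.58 ± 0.046). Both were lower without overlap. The desaturase FADS2 and the triglyceride enzyme DGAT2 each fell by 0.43. Against vehicle the log2 changes at 500 µg/mL were -0.64 for ACSS2, -0.72 for GPAM, -0.17 for FADS2 and -0.23 for DGAT2. The regulators SREBF1 and SREBF2 changed by -0.27 and -0.14.

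**Figure D4:**
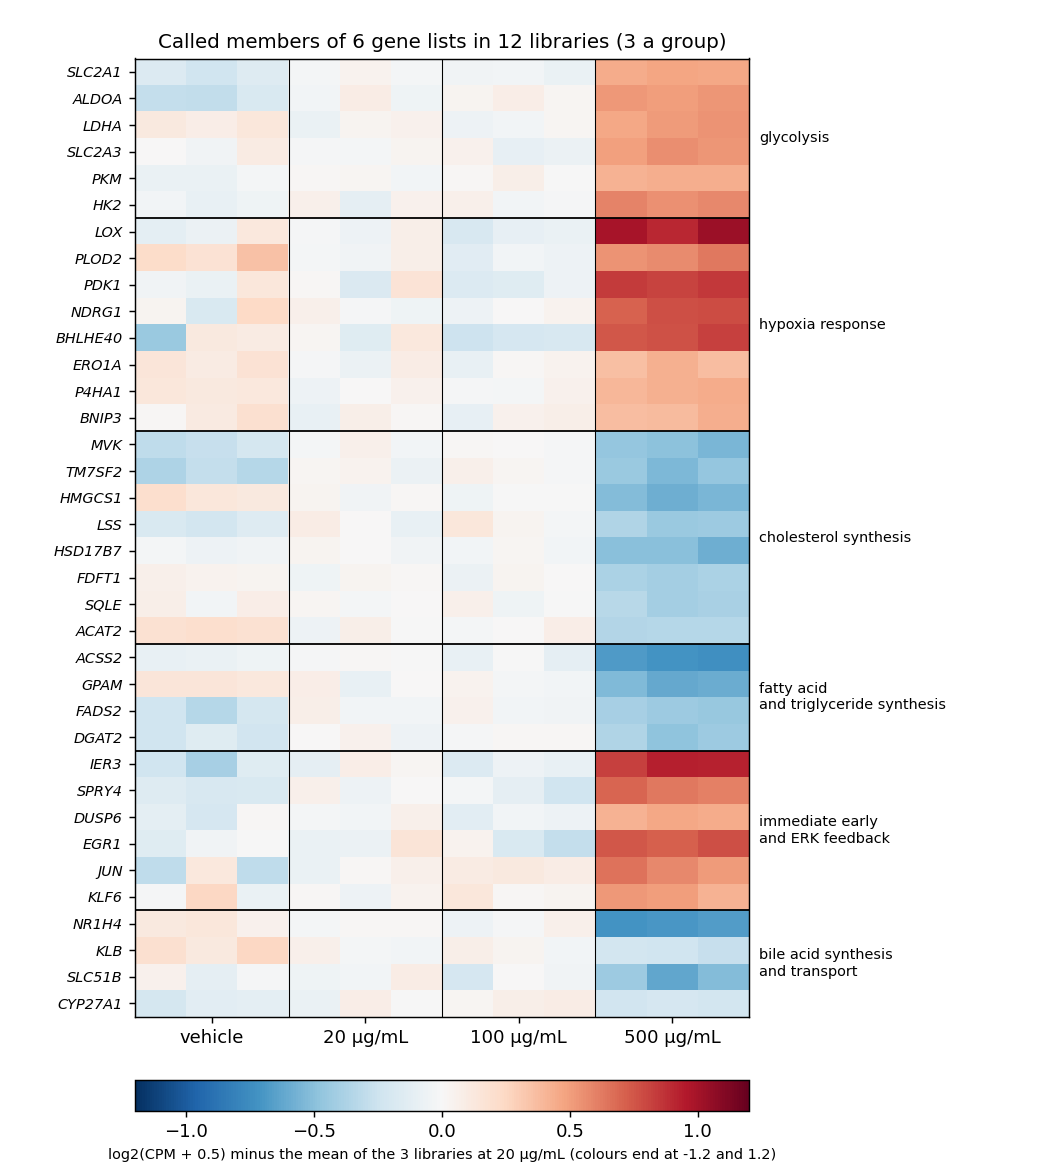
Heat map of log2(CPM + 0.5) minus the mean of the 20 µg/mL libraries in the 12 libraries of Banhasasim-tang and vehicle (columns), for called members with the smallest p, of those reported here, in the glycolysis, hypoxia, cholesterol, fatty acid, immediate early and bile acid lists (rows), with colours ending at 1.2 either way. The rows were chosen for their difference between 500 and 20 µg/mL, so that difference in each block follows from the choice. The libraries at 100 µg/mL stay near those at 20 µg/mL in these rows, which do not include the metallothioneins.

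Cytokine and chemokine genes under NF-kB were partly higher. Of 16 tested, 8 were higher and 1 lower (median 0.27), where 8.59% of all genes were higher and 6.52% lower. The lower share was near that of all genes. CCL20, a chemokine for CCR6-bearing lymphocytes, had 55.6, 57.2 and 60.5 CPM at 500 µg/mL, against 22.4, 26.3 and 31.3 CPM at 20 µg/mL. It rose without overlap, by 1.12 ± 0.079 (adjusted p = 1.1e-15). ICAM1, the leukocyte adhesion molecule, had 137, 138 and 135 CPM at 500 µg/mL, against 94.9, 93.2 and 89.3 CPM at 20 µg/mL (0.56 ± 0.042), and the NF-kB subunit genes NFKB2 and RELB rose by 0.40 and 0.81. The gene that fell was complement factor CFB, by 0.25.

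Immediate early genes and the feedback genes of the ERK pathway gave 9 higher and 0 lower of 26 tested by edgeR (median 0.35), with 18 higher and 0 lower at an unadjusted p under 0.05 and 9 and 0 by DESeq2. IER3, an early survival gene, had 144, 156 and 155 CPM at 500 µg/mL, against 75.5, 86.4 and 82.9 CPM at 20 µg/mL (0.89 ± 0.057, adjusted p = 3.6e-17). EGR1, a zinc finger transcription factor, had 20.9, 20.5 and 21.3 CPM at 500 µg/mL, against 11.5, 11.6 and 13.7 CPM at 20 µg/mL (0.76 ± 0.078). Both were higher in each library at 500 µg/mL than in any at 20 µg/mL. The ERK inhibitors SPRY4 and DUSP6 rose by 0.65 and 0.45. Of 18 tested TGF-beta and YAP targets 9 were higher and 3 lower (median 0.17). CCN1, a matrix protein and YAP target, had 27.9, 25.6 and 25.2 CPM at 500 µg/mL, against 14.3, 15.4 and 16.3 CPM at 20 µg/mL (0.77 ± 0.076), and ANKRD1 rose by 0.37. The 3 lower genes, SMAD7 (-0.35), SKIL (-0.23) and AJUBA (-0.14), include the pathway's own inhibitors SMAD7 and SKIL. Without replicate 3 at 20 µg/mL 5 TGF-beta and YAP targets were called higher.

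HAMP encodes hepcidin, the liver hormone that blocks iron export and is switched on by BMP signalling and by IL-6. It had 27.2, 30.9 and 28.6 CPM at 500 µg/mL, against 65.2, 88.4 and 60.8 CPM at 20 µg/mL. Each library at 500 µg/mL was below each library at 20 µg/mL, among which replicate 2 was the highest. The log2 change was -1.31 ± 0.11 (adjusted p = 1.16e-12), at chr19:35280716-35285143, plus strand. Other BMP-SMAD genes were lower as well, 8 of 16 tested in all with 2 higher (median -0.22). ID2, a helix-loop-helix inhibitor induced by BMP, had 108, 119.8 and 113 CPM at 500 µg/mL, against 143, 161 and 153 CPM at 20 µg/mL (-0.43 ± 0.053). ID1 and ID3 changed by -0.31 and -0.34, and TMPRSS6, a protease that lowers hepcidin, by -0.52. The 2 higher genes were BMP4 (0.19) and the receptor ACVR1 (0.19), and 1 was left without replicate 1 or 2 at 20 µg/mL or replicate 1 or 3 at 500 µg/mL, and by DESeq2. Of 17 tested genes of iron handling 4 were higher and 3 lower, where 8.59% of all genes were higher and 6.52% lower. CP, the copper ferroxidase ceruloplasmin, had 138, 138 and 142 CPM at 500 µg/mL, against 68.3, 55.9 and 68.2 CPM at 20 µg/mL (1.12 ± 0.057, adjusted p = 1.01e-20). TFRC, the transferrin receptor, rose by 0.43, while TF and SLC39A14, which complete the higher group, each rose by 0.10 on the log2 scale. HPX, which carries haem in plasma, TFR2 and HMOX1, the haem oxygenase, fell by 0.81, 0.21 and 0.25. Without replicate 2 or 3 at 20 µg/mL or replicate 1 or 3 at 500 µg/mL the higher group held 2 genes. Over all genes those fits called 881 of 16317, 1133 of 16320, 1008 of 16322 and 980 of 16318 higher, in the same order.

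Among genes of secreted plasma proteins more were lower than higher. Of 19 tested acute phase genes 7 were lower and 2, CP and the interleukin-6 receptor IL6R, were higher (median -0.093). Of all genes 6.52% were lower and 8.59% higher, so the higher share was near that of all genes. HP, haptoglobin, had 123, 129.7 and 130.4 CPM at 500 µg/mL, against 186, 212 and 196 CPM at 20 µg/mL (-0.63 ± 0.044, adjusted p = 8.77e-16). FGA, the fibrinogen alpha chain, had 703, 716 and 714 CPM at 500 µg/mL, against 914, 941 and 952 CPM at 20 µg/mL (-0.40 ± 0.033). IL6R rose by 0.53 ± 0.042, without overlap. Of 31 tested coagulation and complement genes 13 were lower and 1, the lectin MBL2 (0.22), was higher (median -0.14). KNG1, the kininogen from which bradykinin is cut, had 3.06, 3.09 and 3.01 CPM at 500 µg/mL, against 6.96, 6.61 and 6.62 CPM at 20 µg/mL. Its log2 change was -1.14 ± 0.094 (adjusted p = 1.74e-13), its 100 µg/mL libraries had 7.08, 6.75 and 6.4 CPM, and vehicle had 6.71, 7.3 and 6.91 CPM. SERPINC1, antithrombin, fell by 0.32. Albumin (ALB) and AFP, main products of the cell, had adjusted p of 0.965 and 0.881, with log2 changes under 0.02 in size. With the model fitted to the 6 libraries alone or to the extract's 9, 8 coagulation genes were lower, and MBL2 lost its call in both and without replicate 1 or 2 at 20 µg/mL or replicate 2 or 3 at 500 µg/mL.

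Bile acid genes gave 8 lower and 2 higher of 14 tested (median -0.19), where 6.52% of all genes were lower and 8.59% higher. NR1H4, the bile acid receptor FXR, had 40.2, 40.6 and 41.4 CPM at 500 µg/mL, against 65.4, 66.8 and 66.8 CPM at 20 µg/mL (-0.70 ± 0.054, adjusted p = 1.44e-14). Its replicates lay close together within each dose, and the doses did not overlap. SLC51B, a subunit of the basolateral bile acid exporter and an FXR target, fell by 0.57, KLB, the FGF19 co-receptor, by 0.25 and CYP27A1, of the alternative synthesis route, by 0.22. The 2 higher genes were BAAT, which conjugates bile acids (0.51), and SLC51A, the other exporter subunit (0.42), and 1 was left without replicate 3 at 500 µg/mL. In the fit of the 6 libraries compared 5 were lower and 1 higher.

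Genes of the NRF2 response were mostly higher, 15 of 26 tested against 2 lower (median 0.20). AKR1B10, an aldo-keto reductase, had 180.0, 184 and 181 CPM at 500 µg/mL, against 80.2, 87.8 and 84 CPM at 20 µg/mL (1.11 ± 0.047, adjusted p = 8.8e-24). TXNRD1, thioredoxin reductase, had 289, 284 and 288 CPM at 500 µg/mL, against 209, 211 and 207 CPM at 20 µg/mL (0.46 ± 0.034). GCLM, a subunit of the enzyme that limits glutathione synthesis, had 79.1, 79.8 and 77 CPM at 500 µg/mL, against 52, 55.7 and 58.8 CPM at 20 µg/mL (0.50 ± 0.043). None of the 3 overlapped between doses; AKR1B10 has close relatives whose reads RSEM may share out. The cystine carrier SLC7A11 rose by 0.53. HMOX1 was among the 2 lower genes.

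Among 21 tested conjugation enzymes 1 was higher and 5 were lower, where 8.59% of all genes were higher and 6.52% lower. GSTA1, a glutathione transferase of hepatocytes, had 42.5, 46.5 and 43.1 CPM at 500 µg/mL, against 72.7, 76.5 and 75.8 CPM at 20 µg/mL (-0.77 ± 0.065, adjusted p = 3.04e-13). GSTA2, its near-identical neighbour on chromosome 6, fell by 0.76, and the split of reads between the 2 is uncertain. SULT2A1, which sulfates steroids and bile acids, fell by 0.44, and GSTA4 and GSTM4 each by 0.22, GSTM4 without a call when replicate 1 at 500 µg/mL was left out. The higher gene MGST1 (0.21) lost its call without replicate 1 at 20 µg/mL or replicate 2 or 3 at 500 µg/mL. Of 8 ABC exporters 5 were higher and 1, ABCC6 (-0.30), was lower (median 0.26), against the same shares of all genes. ABCC2, which exports conjugates to bile, had 499.6, 473 and 469 CPM at 500 µg/mL, against 352, 294 and 309.8 CPM at 20 µg/mL (0.59 ± 0.053). P-glycoprotein ABCB1 rose by 0.40, ABCG2 by 0.42, ABCC1 by 0.31 and ABCC5 by 0.20, the last losing its call without replicate 2 at 20 µg/mL or replicate 1 at 500 µg/mL.

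Few genes of the ribosome and the respiratory chain passed. Of 32 tested cytosolic ribosomal protein genes 0 were higher and 0 lower by edgeR (median -0.030), with 0 in each direction at an unadjusted p under 0.05 and by DESeq2. Of 36 tested genes of the nuclear respiratory chain list 1, the coactivator PPARGC1A (0.23 ± 0.06), was higher and 0 lower, with 4 lower at an unadjusted p under 0.05 and 1 by DESeq2. Its call was lost without replicate 2 at 20 µg/mL, where its log2 change was 0.13, and in the fits of the 6 libraries (adjusted p = 0.0929) and of the extract's 9 (adjusted p = 0.0704), by edgeR. In that list 2 genes were lower without replicate 1 at 20 µg/mL. Of 15 tested genes of mitochondrial DNA the ribosomal RNAs MT-RNR1 (0.73 ± 0.059) and MT-RNR2 (0.33 ± 0.064) were higher and 0 lower by edgeR, at an unadjusted p under 0.05 or by DESeq2. The share of counts from mitochondrial DNA was 9.439, 10.675 and 10.278% at 500 µg/mL, against 9.047, 9.958 and 9.449% at 20 µg/mL, overlapping ranges. Of 26 tested genes of mitosis 7 were lower, where 6.52% of all genes were, and 0 higher (median -0.083), 0 also at an unadjusted p under 0.05 and by DESeq2. They were small changes, such as -0.20 ± 0.04 for the kinesin KIF20A, -0.30 ± 0.071 for the ubiquitin enzyme UBE2C and -0.15 ± 0.036 for cyclin A2 (CCNA2).

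Against vehicle, 500 µg/mL differed in 5592 genes (34.7%), 2991 higher (18.6%) and 2601 lower (16.2%), and in 4637 genes without vehicle replicate 2. This count includes any difference that goes with the sample codes. Metallothioneins were lower in 7 of 7 with and without that library. Hypoxia genes were higher in 23 of 30, 22 without it, and glycolysis genes in 18 of 25, 19 without it. Cholesterol genes were lower in 20 of 26, 19 without it, and NRF2 genes higher in 16 of 26, 15 without it. Immediate early genes were higher in 14 and lower in 2 with all vehicle libraries, but higher in 18 and lower in 0 without replicate 2. Some other lists did not keep the pattern seen against 20 µg/mL. Of 22 hepatocyte transcription factors 8 were higher and 4 lower (7 and 4 without replicate 2), against 0 and 6 relative to 20 µg/mL. WNT targets went from 0 higher and 5 lower of 18 to 5 and 4 (3 and 3 without it). Nuclear respiratory chain genes went from 1 higher and 0 lower of 36 to 2 and 12 (2 and 8 without it). IGFBP1 averaged 233 ± 12.7 CPM at 500 µg/mL and 42.8 ± 4.21 CPM with vehicle (2.44 ± 0.098, adjusted p = 1.17e-24). For HAMP the means were 28.9 ± 1.87 CPM at 500 µg/mL and 66.2 ± 2.28 CPM with vehicle (-1.19 ± 0.12). Without vehicle replicate 2 the log2 change of IGFBP1 was 2.39. Both comparisons share the libraries at 500 µg/mL, so the values stand side by side and are not independent.

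Yijung-tang at the same doses allowed a test of whether the dose effect was different in Banhasasim-tang, over 12 libraries whose sample codes begin with the same number. The effects differed in 1947 genes (12.1%), 1138 with a more positive effect in Banhasasim-tang (7.07%) and 809 with a more negative one (5.03%). In a fit of only the 4 groups compared the number was 1065. IGFBP1 had a dose effect of 2.21 ± 0.096 in Banhasasim-tang and 0.01 ± 0.10 in Yijung-tang, where the libraries had 42.1, 56.1 and 46.8 CPM at 500 µg/mL and 47.4, 48.6 and 48.2 CPM at 20 µg/mL. The difference was 2.21 ± 0.14 on the log2 scale (adjusted p = 5.23e-17). CHST15 gave 1.40 ± 0.10 in Banhasasim-tang and -0.33 ± 0.12 in Yijung-tang. HAMP fell in Banhasasim-tang, while its Yijung-tang libraries had 64.8, 83.5 and 69.8 CPM at 500 µg/mL and 48.5, 66 and 62.9 CPM at 20 µg/mL (adjusted p = 0.132 there); the difference was -1.60 ± 0.16 (adjusted p = 6.65e-11). GSTA1 had opposite signs, -0.77 ± 0.065 in Banhasasim-tang and 0.64 ± 0.062 in Yijung-tang, with 105, 119 and 98.4 CPM at 500 µg/mL and 61.4, 75.9 and 68.8 CPM at 20 µg/mL of Yijung-tang.

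**Figure D5:**
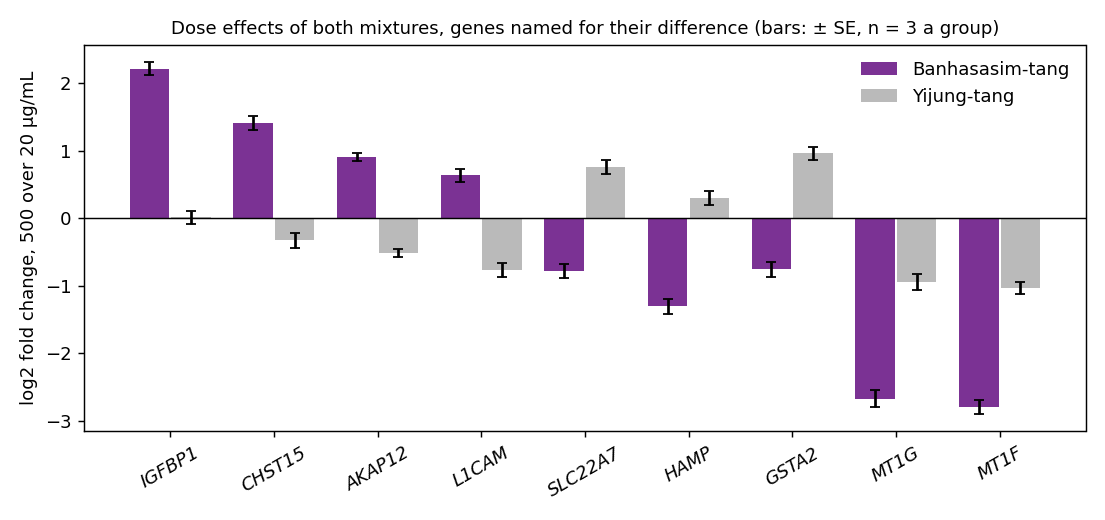
Log2 fold change of 500 over 20 µg/mL (vertical axis) in Banhasasim-tang and in Yijung-tang for 9 genes among those whose dose effects differ most, with bars of ± 1 SE and 3 libraries per dose. IGFBP1, CHST15, AKAP12 and L1CAM are higher in Banhasasim-tang, and MT1F, MT1G, GSTA2, HAMP and SLC22A7 are lower.

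Other genes moved in both mixtures. MT1F fell by 2.80 in Banhasasim-tang and by 1.03 in Yijung-tang, and the difference of -1.77 ± 0.14 passed (adjusted p = 7.33e-14). For MT2A the effects were -1.51 in Banhasasim-tang and -1.02 in Yijung-tang, and the difference of -0.48 ± 0.17 did not pass (adjusted p = 0.0602). AKR1B10 rose by 1.11 in Banhasasim-tang and by 1.03 in Yijung-tang, a difference of 0.085 ± 0.066 (adjusted p = 0.473). CYP1A1 rose by 1.82 in Banhasasim-tang and by 1.33 in Yijung-tang, a difference of 0.49 ± 0.17 close to the threshold (adjusted p = 0.045). By list, the dose effect was more positive in Banhasasim-tang in 18 of 30 hypoxia genes, 12 of 25 glycolysis genes and 13 of 26 immediate early genes, and more negative in 18 of 26 cholesterol genes and 6 of 7 metallothioneins. NRF2 genes were split, with 4 more positive and 7 more negative. HMOX1 was among those with a more negative effect, at -0.25 ± 0.064 in Banhasasim-tang and a difference of -0.99 ± 0.09.

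The 4 single plants of the series, in libraries with other sample codes, gave a range of values for these genes. IGFBP1 rose between the same doses by 2.18 in Bupleuri Radix, 3.45 in Cimicifugae Rhizoma and 4.15 in Aconiti Lateralis Radix Preparata, while Citri Unshius Pericarpium gave 0.11 (adjusted p = 0.793). MT1F gave -2.86, -3.18, -2.84 and -0.80 in the same order. Differences from these extracts were not tested.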

How the data were processed

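Per the labels' protocols, RNA of HepG2 cells was built into strand-specific libraries (MGIEasy directional kit) and sequenced on an MGIseq machine in paired 100 bp reads. The authors used FastQC 0.11.9, Trim Galore 0.6.5, STAR 2.7.3a, RSEM 1.3.3 and the GRCh38 build, per the submitters' processing notes; the annotation release and strand setting are not given in the sources used here. The authors deposited RSEM expected counts for 60675 Ensembl genes, unscaled, of which 24.5% of nonzero values are not whole numbers. Its 207 columns that match no sample here were not used. Columns were matched to samples through the code at the start of the titles. The sample labels give 0.1% DMSO as vehicle, while the series text names 2% DMSO and a wortmannin control, which no sample here carries. Nothing in the labels says that replicates came from separate cultures, and p-values then reflect only the spread between these libraries, which may be technical.

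Expected counts were rounded to whole numbers. Coordinates came from GENCODE release 29, which lists 57055 of the genes, and the rest held 0.0398% of counts. Symbols came from a separate list of gene names, and from release 29 where that list had none. In R 4.3.3, edgeR 4.0.16 fitted 1 quasi-likelihood model with limma 3.58.1 to 57 libraries in 19 groups of 3, leaving out the 3 Bojungikgi-tang libraries, which have 1 library per dose. Genes were kept by filterByExpr (minimum count 10, minimum total 15), which left 16093, and scaled by TMM (factors 0.898 to 1.04). The model had 38 residual degrees of freedom and a common biological coefficient of variation of 4.86%. CPM came from the cpm function of edgeR on TMM-scaled library sizes. Library totals ran over 17598646 to 30451640. Standard errors were derived from the fold change and its F statistic. A gene was called at a Benjamini-Hochberg adjusted p under 0.05 over all genes. The members and gene lists were chosen with earlier results of these data known. Named genes are the 15 highest and 15 lowest called of 500 against 20 µg/mL, the 5 highest and 5 lowest called of 100 against 20 µg/mL and of the difference between the mixtures, all protein coding with a mean of 5 CPM or more and without overlap. From each list come up to 4 called members with the smallest p, and any member of a list of up to 12. The text names fewer in places, and every other gene named was chosen after its values were seen. A few qualifying genes are not reported here. Replicate numbers were checked for pairing by the correlation of deviations from group means. Alternatives were DESeq2 1.42.0, size factors by the median ratio, other filters, a GC correction, replicate number as a block, fits of fewer libraries and leaving out each library. The fit was tested on simulated data with known changes.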

Additional observations from a re-analysis of the deposited data

Results flagged for a closer look

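Among the genes whose dose effect in Banhasasim-tang differed most from that in Yijung-tang, 9 are given here, by the interaction test of the same edgeR model. The more positive differences on the log2 scale were IGFBP1 at 2.21, CHST15 at 1.74, the scaffold protein gene AKAP12 at 1.42 and the adhesion molecule gene L1CAM at 1.41. AKAP12 had 174, 179 and 172 CPM at 500 µg/mL and 100.4, 83.1 and 96.9 CPM at 20 µg/mL of Banhasasim-tang. In Yijung-tang it had 78.6, 67.3 and 80.1 CPM at 500 µg/mL and 112, 103 and 108 CPM at 20 µg/mL, so the doses lay in opposite order in the 2 mixtures. L1CAM had 14.1, 15.3 and 16 CPM at 500 µg/mL and 9.93, 8.68 and 10.6 CPM at 20 µg/mL of Banhasasim-tang, and 6.36, 5.44 and 6.61 CPM at 500 µg/mL and 10.7, 10.8 and 10.0 CPM at 20 µg/mL of Yijung-tang.

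The more negative differences were MT1F at -1.77, MT1G at -1.73, GSTA2 at -1.71, HAMP at -1.60 and SLC22A7, an organic anion carrier of liver, at -1.54. GSTA2 had 7.66, 6.74 and 6.09 CPM at 500 µg/mL and 11.2, 11.7 and 11.6 CPM at 20 µg/mL of Banhasasim-tang, and 17.1, 23.3 and 17.9 CPM at 500 µg/mL and 9.19, 10.9 and 9.88 CPM at 20 µg/mL of Yijung-tang. SLC22A7 had 5.03, 5.34 and 4.46 CPM at 500 µg/mL and 8.43, 8.38 and 8.68 CPM at 20 µg/mL of Banhasasim-tang, and 10.7, 12.8 and 11.4 CPM at 500 µg/mL and 5.57, 7.97 and 7.1 CPM at 20 µg/mL of Yijung-tang. Adjusted p of the 9 differences ran from 2.72e-17 for AKAP12 to 1.3e-10 for MT1G.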

How the results depend on the processing

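For 500 against 20 µg/mL, 2433 genes were called, with 1685 to 2502 when any 1 library was left out, 1451 in a fit of the 6 libraries compared and 1532 in a fit of the extract's 9. For 100 against 20 µg/mL the 2 calls became 69 with no filter on low counts, 6 and 5 in those smaller fits, and 1 to 2 with 1 library left out. For 500 against 100 µg/mL 1346 genes were called in the fit of 9 libraries, and 1569 to 2095 with 1 library left out, against 2204. For the difference from Yijung-tang 1065 were called in a fit of only the groups compared, and 1419 to 2272 with 1 library left out, against 1947. Against vehicle the count stayed within 1.5 times of 5592 in all alternatives, with 4566 to 4988 when 1 library was left out. It was lowest with the GC trend removed, at 3993, while that correction gave 2774 for 500 against 20 µg/mL. The cause of these differences was not tested. Same-numbered libraries at 500 and 20 µg/mL did not deviate together (r = 0.033, 0.012 and -0.032 over genes). Between 500 and 100 µg/mL r was 0.102, 0.028 and 0.092 for the same numbers and -0.099 to 0.008 for different ones. Between 100 and 20 µg/mL it was 0.206, 0.021 and 0.039 for the same numbers and -0.187 to 0.150 for different ones. Whether the numbers mark pairs was not tested further. With replicate number as a block 3025 genes were called in the fit of 57 libraries, against 2433 without it, and 2417 in the fit of 9, against 1532 without it. For 100 against 20 µg/mL the block in the fit of 9 libraries gave 8 calls, against 5 without it. For 500 against 20 µg/mL 12 immediate early genes were higher with the block and 9 without it in the fit of 57, and 15 with it and 13 without it in the fit of 9. For 500 against 20 µg/mL, no named gene called in the fit of 57 libraries changed direction in any alternative. No named gene without a call there gained one in the other direction. The sign of genes that stayed without a call was not compared. Of 172 to 174 named genes per alternative 160 to 173 kept their side of the threshold. Against vehicle, HSPB1, SMAD7 and ARG2 lost their call and GLA and PER3 gained one without vehicle replicate 2. Depth limits genes near or under 1 CPM, such as MT1M and CA9, whose fold changes rest on few reads.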

Other observations

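Several hepatocyte programmes outside the main groups also held genes that differed between 500 and 20 µg/mL of Banhasasim-tang. The counts below stand against 8.59% of all genes tested that were higher and 6.52% that were lower. Of 29 tested genes of the urea cycle and amino acid catabolism 6 were higher and 9 lower. BHMT, which methylates homocysteine from betaine, had 4.32, 3.61 and 3.99 CPM at 500 µg/mL, against 5.77, 7.18 and 7.23 CPM at 20 µg/mL (-0.76 ± 0.098 on the log2 scale, adjusted p = 5.86e-08). GNMT, which disposes of methyl groups on glycine, had 1.34, 1.09 and 1.05 CPM at 500 µg/mL, against 2.8, 2.86 and 2.82 CPM at 20 µg/mL (-1.29 ± 0.17). ARG1, the liver arginase, was low but did not overlap, with 2.32, 2.03 and 2.13 CPM at 500 µg/mL and 0.681, 0.714 and 0.723 CPM at 20 µg/mL, and ARG2, its mitochondrial counterpart, rose by 0.39. With the model fitted to the 6 libraries alone 3 genes of this list were higher. Of 22 tested hepatocyte transcription factors 6 were lower and 0 higher by edgeR, with 2 higher at an unadjusted p under 0.05 and 0 by DESeq2. FOXA1, a pioneer factor, fell by 0.36. CEBPA had 118, 123 and 122 CPM at 500 µg/mL, against 158, 190.4 and 187 CPM at 20 µg/mL (-0.56 ± 0.096), and the vehicle libraries had 119, 121 and 117 CPM, so the lower dose was the one away from vehicle. Without replicate 2 at 20 µg/mL 1 transcription factor was called higher. Genes of fatty acid oxidation gave 4 higher and 5 lower of 22 tested. CPT1A, the gate of mitochondrial fatty acid import, rose by 0.48 ± 0.048, PLIN2, a lipid droplet coat, by 0.45 ± 0.041 and VNN1, the pantetheinase, by 1.37 ± 0.17, while ACSL1, which activates long-chain fatty acids, fell by 0.24. The lipoprotein list had 3 of 23 higher and 8 lower, and the lower number was 4 without replicate 2 at 20 µg/mL and 5 without replicate 1 or 2 at 500 µg/mL. APOC3, an inhibitor of lipoprotein lipase, fell by 0.43 and APOH by 0.34, while APOM, which carries sphingosine phosphate, rose by 0.35 and MTTP, which loads lipid on apolipoprotein B, by 0.21.

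Of 34 tested genes of autophagy and lysosome 6 were higher and 3 lower, the lower share being near that of all genes (6.52%). SQSTM1, the receptor p62, had 359.9, 364 and 364 CPM at 500 µg/mL, against 249.9, 266 and 247 CPM at 20 µg/mL (0.51 ± 0.032, adjusted p = 2.13e-17), and the cholesterol exporter NPC1 rose by 0.35. The 3 lower genes, TFEB (-0.31), NPC2 (-0.17) and CTSA (-0.14), lost their calls without replicate 2 at 20 µg/mL. Of 26 tested p53 targets 5 were higher and 2, SESN1 (-0.24) and FDXR (-0.23), lower, again a lower share near that of all genes, with 1 lower without replicate 2 at either dose or replicate 3 at 500 µg/mL. CDKN1A, the cell cycle inhibitor p21, had 128, 128 and 128 CPM at 500 µg/mL, against 99.1, 108 and 98.6 CPM at 20 µg/mL (0.33 ± 0.041). Matrix and adhesion genes gave 7 of 28 higher and 2, COL5A2 (-0.70) and SPARC (-0.17), lower. ITGA2, the collagen-binding integrin subunit, had 159, 160.5 and 159 CPM at 500 µg/mL, against 92.4, 75.4 and 85.1 CPM at 20 µg/mL (0.92 ± 0.064), and fibronectin, FN1, rose by 0.46. WNT targets gave 5 of 18 lower and 0 higher by edgeR (1 at an unadjusted p under 0.05 and 0 by DESeq2), among them glutamine synthetase GLUL (-0.19), NKD1 (-0.14), NOTUM (-0.30), DKK1 (-0.29) and SP5 (-0.34). SP5 had 155, 165 and 166 CPM at 500 µg/mL, against 204, 214 and 199 CPM at 20 µg/mL, and vehicle libraries had 98, 113 and 114 CPM. Clock genes gave 1 of 17 higher, BHLHE40 (0.79), and 5 lower, among them DBP (-0.72), TEF (-0.32), PER3 (-0.26) and NFIL3 (-0.17). The lower number was 2 without replicate 1 at 20 µg/mL and 3 without replicate 2 at 20 µg/mL or any 1 library at 500 µg/mL, and 2 genes were higher without replicate 1 at 20 µg/mL. Of 26 tested interferon genes 4 were lower, IFIT1 (-0.92), PSMB9 (-0.48), PSMB8 (-0.31) and STAT2 (-0.18), and 0 higher by edgeR, 1 at an unadjusted p under 0.05 and 0 by DESeq2, with 1 called higher without replicate 3 at 20 µg/mL or replicate 1 at 500 µg/mL. IFIT1 and PSMB8 were called in every alternative run. PSMB9 lost its call without replicate 2 at 20 µg/mL (log2 change -0.32, adjusted p = 0.232 by edgeR) and without replicate 1 or 3 at 500 µg/mL, and STAT2 without replicate 1 or 3 at 20 µg/mL or replicate 1 at 500 µg/mL. Both also lost it in the fits of the 6 libraries and of the extract's 9, which left 2 genes lower.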
